A study of Drosophila melanogaster with 12 samples.

Results

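Adult heads in which TBPH had been expressed in neurons of tbph Δ23 flies were compared with heads of tbph Δ23 flies without that expression, across every gene that the array could name. The comparison holds 6 of the 12 arrays of the series, 3 for the rescue and 3 for tbph Δ23, and 11982 genes. All genes were described, whether or not the mutation itself had altered them. Rescue flies were homozygous for tbph Δ23 and carried elav-GS-GAL4 and UAS-TBPH. GeneSwitch is a GAL4 protein that works only when RU-486 is present, and the elav promoter confines it to neurons. These flies were fed RU-486 at 5 mM from eclosion and their heads were taken at 60 h. The labels give the tbph Δ23 flies by that allele alone, and they had neither transgenes nor drug. The same was true of tbph Δ142, another deletion allele, and of w1118, the control strain. All 4 groups were 60 h old. TBPH re-expression, the transgenes and the drug therefore varied together between rescue and tbph Δ23 and cannot be told apart here. The sources used here give neither the number of heads, the sex ratio nor the hour of collection for any array. They call the replicates biological.

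TBPH is the fly counterpart of TDP-43, the protein that forms aggregates in motor neuron disease and that controls the processing of many RNAs. The loss of TBPH in flies disturbs locomotion and the neuromuscular synapse. Adult heads hold brain and eyes, and also cuticle, antennae, muscle, blood cells and the fat body, which makes yolk protein, detoxifying enzymes and antimicrobial peptides.

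TBPH was measured by 2 probe sets. The brighter probe set read 9.13, 9.63 and 9.78 on the rescue arrays, against 8.13, 8.32 and 8.11 on the tbph Δ23 arrays, all as RMA log2 levels. Every rescue array lay above every tbph Δ23 array, and the difference was 1.32 ± 0.137 (SE), or 2.51-fold, with an adjusted p of 1.84e-05 by limma over all probe sets. On average the brighter probe set read 8.19 ± 0.12 in tbph Δ23 heads, 5.43 ± 0.098 in tbph Δ142 heads and 7.98 ± 0.034 in w1118 heads (SD, n = 3 each). The difference of tbph Δ23 from w1118 was 0.20, with an adjusted p of 0.350. No source used here places these probes against the deletions, so the probe set does not check the tbph Δ23 label. The dimmer probe set lay between 3.21 and 3.40 in rescue heads and between 3.31 and 3.56 in tbph Δ23 heads, a difference of -0.14 with an adjusted p of 0.286.

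Of the 11982 genes, 3529 passed an adjusted p of 0.05 between rescue and tbph Δ23 (29.5% of all genes tested), with limma and Benjamini-Hochberg adjustment. Of these, 1719 were higher in rescue (14.3%) and 1810 were lower (15.1%). In 5153 genes (43.0%) the 3 rescue arrays lay wholly above or below the 3 tbph Δ23 arrays, and 3472 of the called genes were among them. Most changes were small, with a median absolute log2 change of 0.47 over the called genes. Changes of at least 2-fold were called in 643 genes, 267 higher and 376 lower. The excess of falls grew with size: 62 genes were at least 4-fold higher and 122 at least 4-fold lower, and 3 were at least 32-fold higher against 14 at least 32-fold lower. Calls were more frequent among brighter genes. In the dimmest quintile of genes 4.63% rose and 1.54% fell, against 23.3% and 27.2% in the brightest quintile. The median SE of a change was 0.0928 and its 95% interval reached a median of 0.203 to either side.

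**Figure D1:**
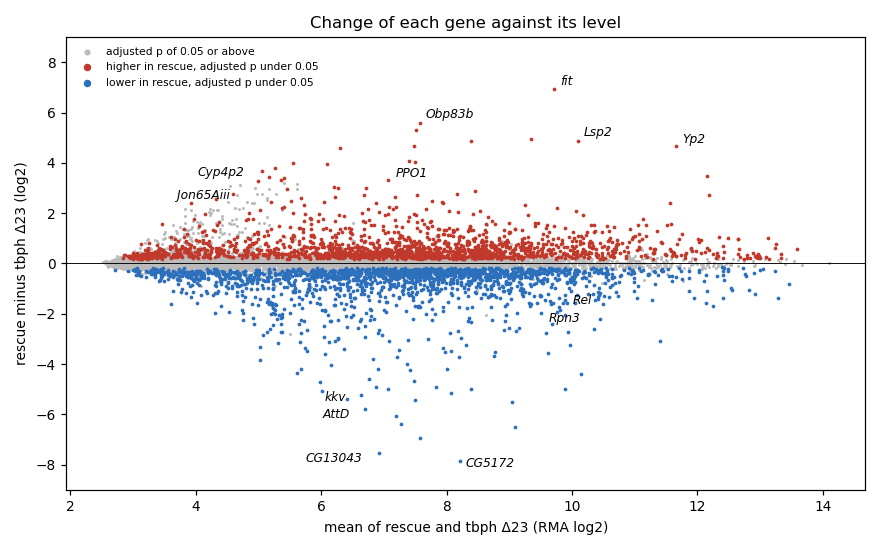
Change of each of the 11982 genes (rescue minus tbph Δ23, log2) against the mean RMA log2 level of both groups. Coloured points passed an adjusted p of 0.05, and the largest changes lie below 0, down to -7.86 for CG5172, while the largest rise is 6.93 for fit.

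Rescue replicate 1 stood apart from the other rescue arrays. Its mean correlation with them over genes was 0.973, against 0.985 for each of the other rescue arrays and at least 0.995 on the arrays of all other groups. In 133 genes it read at least 2 log2 units above both other rescue arrays, and 131 of them were higher there than on all 11 remaining arrays. Digestive proteases of the gut were among these genes. The trypsin alphaTry read 12.91, 4.05 and 4.08 in rescue replicates 1 to 3, and the serine protease Jon65Aiii read 11.62, 3.95 and 3.47, while both lay between 3.47 and 4.06 on the tbph Δ23 arrays. The flight muscle genes fln and Act88F were also highest in that array, at 6.35 and 9.63. Akh, the adipokinetic hormone of the corpora cardiaca, read 9.06, 3.70 and 6.42 in rescue heads and 3.77 to 3.95 in tbph Δ23 heads. Of the 133 genes, 3 passed the threshold in the comparison. Without rescue replicate 1, 3304 genes passed, and 3008 of the 3529 original calls were kept with their direction.

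Marker lists for cell types were compared as the mean RMA log2 level of their measured members on each array. Neuron markers (7 genes) lay at 7.81 to 7.92 in rescue heads against 7.91 to 8.05 in tbph Δ23 heads, glia markers (6 genes) at 9.20 to 9.27 against 9.20 to 9.28, and testis markers (10 genes) at 3.38 to 3.43 against 3.24 to 3.26. Midgut protease markers (6 genes) read 9.50, 3.51 and 3.35 in the rescue replicates and 3.22 to 3.42 in tbph Δ23. Antenna markers (7 genes) read 10.73, 9.44 and 8.97 in rescue, against 7.98, 6.21 and 6.29 in tbph Δ23. The 4 yolk and female fat body markers, Yp1, Yp2, Yp3 and fit, lay at 13.60 to 13.73 in rescue and at 8.37 to 9.66 in tbph Δ23. In whole heads, fewer cells of a type and less RNA per cell cannot be told apart.

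**Figure D2:**
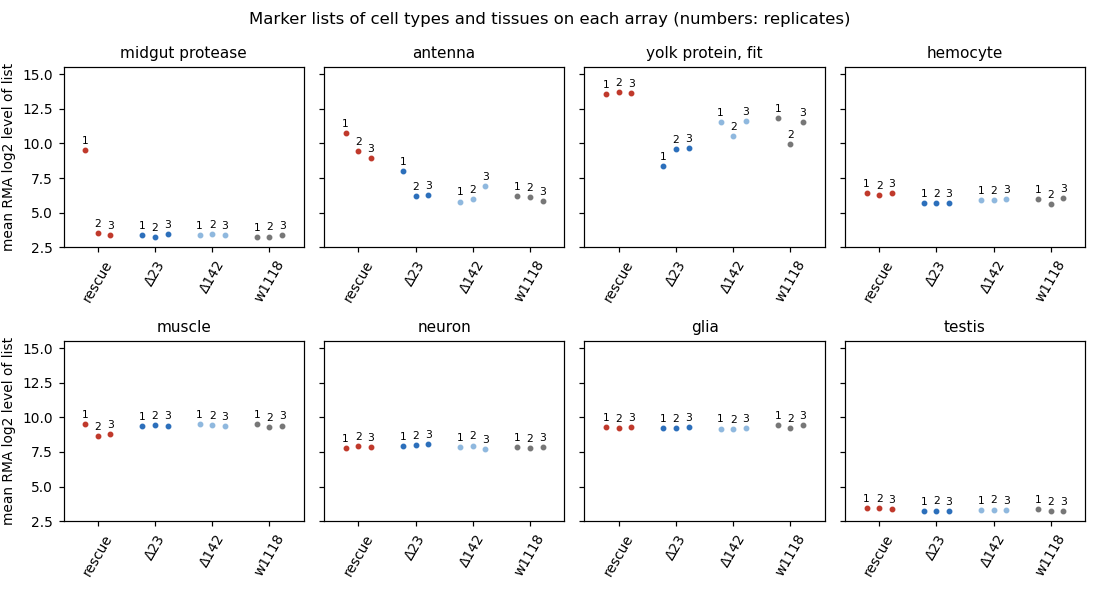
Mean RMA log2 level of 8 marker lists on each array, by group, with replicate numbers above the points. Rescue replicate 1 alone is high in midgut proteases (9.50), all 3 rescue arrays are high in antenna and yolk markers, and neuron and glia markers lie close together in rescue and tbph Δ23.

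Many of the largest falls were in genes of the cuticle. Insect cuticle is a layered matrix of chitin and chitin-binding proteins that the epidermis secretes, hardens and colours, in flies chiefly before and in the first days after eclosion. The largest fall, though, was in CG5172, a gene known by number that is not on the cuticle list, which read 4.41, 4.32 and 4.10 in rescue heads against 11.97, 12.27 and 12.17 in tbph Δ23 heads. It fell by 7.86 ± 0.106 (SE) on the log2 scale, a 232-fold difference, with an adjusted p of 1.58e-12. CG13043 and CG8483 are outside the list as well. CG13043 read 3.22, 3.16 and 3.08 in rescue heads, against 10.69, 10.46 and 10.92 in tbph Δ23 heads, and CG8483 read 4.53, 3.99 and 3.77 against 11.10, 11.04 and 11.03. In these 3 genes the 2 groups were separated by more than 6 log2 units on every array. CG5172 averaged 12.08 in tbph Δ142 and 12.72 in w1118, CG13043 averaged 10.51 in tbph Δ142 and 8.99 in w1118, and CG8483 averaged 7.97 in tbph Δ142 and 9.15 in w1118. The rescue arrays were thus the low ones among all 12. CG8736 was more variable, at 7.82, 4.47 and 5.19 in rescue heads against 12.21 to 12.47 in tbph Δ23 heads.

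Of 117 measured cuticle protein genes, 39 were lower in rescue and 5 were higher (all genes: 15.1% and 14.3%), with a median change of -0.16 against 0.013 over all genes. The members that fell furthest were Cpr97Eb (-5.14), Cpr97Ea (-5.0), Cpr62Bc (-4.99), Vajk3 (-4.91) and Cpr50Cb (-4.73). Cpr97Ea, a chitin-binding protein of the RR family, read 4.63, 4.32 and 4.75 in rescue heads against 9.62, 9.33 and 9.74 in tbph Δ23 heads, and 10.94 on average in w1118. The peritrophin-like proteins obst-B (-3.39) and Gasp (-2.61) fell. Among the 5 that rose, Cpr51A rose most, reading 6.15, 5.79 and 5.89 in rescue heads against 4.62, 4.89 and 4.97 in tbph Δ23 heads. Cpr51A averaged 7.88 in w1118, so the rescue level lay between the mutant and the control. Leaving out single arrays gave 35 to 39 lower, and 3 higher without rescue replicate 2, tbph Δ23 replicate 1 or tbph Δ23 replicate 2.

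**Figure D3:**
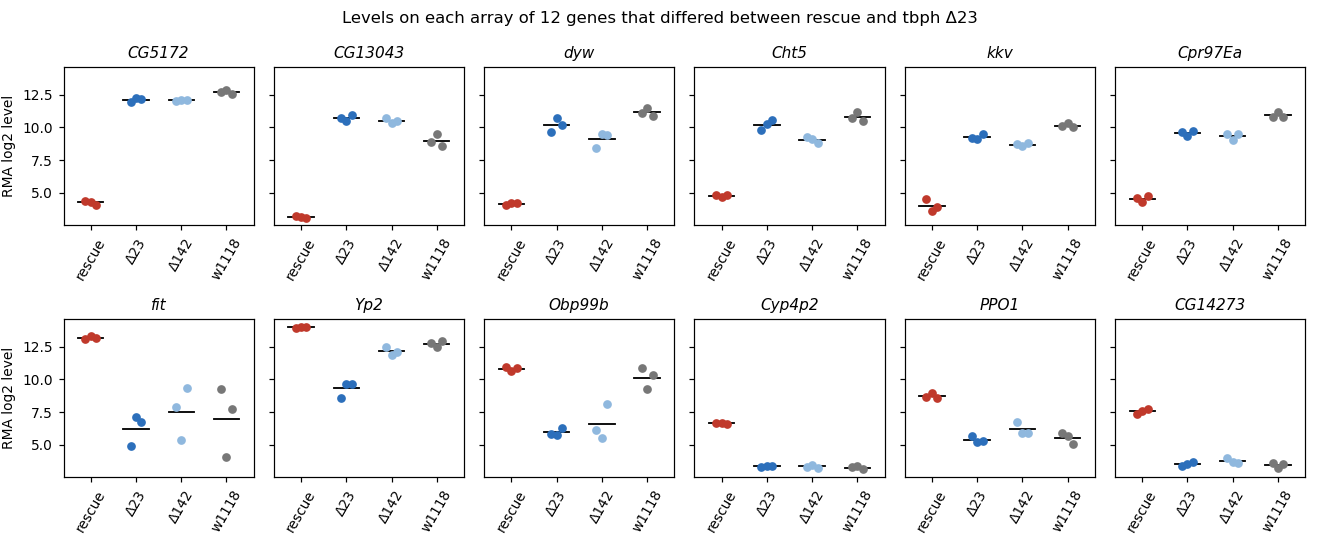
RMA log2 level on each array of 6 genes with large falls (top row) and 6 with large rises (bottom row). Points are arrays and bars group means, with rescue at the left of each panel. In the top row the 3 rescue arrays lie below the other 9, and in the bottom row they lie above the 3 tbph Δ23 arrays in every panel.

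Of 24 measured genes of chitin synthesis and remodelling, 12 were lower, 5 were higher and 7 did not pass, with a median of -0.18. kkv, the chitin synthase of the epidermis, read 4.53, 3.61 and 3.92 in rescue heads against 9.18, 9.11 and 9.47 in tbph Δ23 heads, and fell by 5.23 ± 0.194 (SE; adjusted p of 1.11e-08). The chitinase Cht5 read 4.84, 4.71 and 4.83 in rescue heads against 9.81, 10.23 and 10.59 in tbph Δ23 heads. The chitinase Cht7 fell by 3.80, and the chitin deacetylases verm (-3.71) and serp (-3.51) fell as well. The changes of Cht8 (0.93), Cda9 (0.86) and Cht4 (0.43) did not pass. knk, which organises newly made chitin, fell by 2.56, and mmy, which makes the sugar nucleotide that kkv uses, fell by 0.95. The members that rose were Hexo2, a hexosaminidase, and 4 imaginal disc growth factors, chitinase-like proteins without enzyme activity. Idgf5 rose by 1.21, Idgf6 by 1.06 and Idgf2 by 0.84.

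Pigment and tanning genes were also lower more often than higher. Of 25 measured, 10 were lower and 3 higher, with a median of -0.12. yellow-d2, of the family of the cuticle pigment gene yellow, fell by 4.04. The enzyme se, which acts in the red eye pigments, fell by 2.20, and Pu, which makes the pteridine cofactor, fell by 1.45. The tyrosine hydroxylase ple fell by 0.86 and the dopa decarboxylase Ddc fell by 0.72. The xanthine dehydrogenase ry rose by 0.61.

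**Figure D4:**
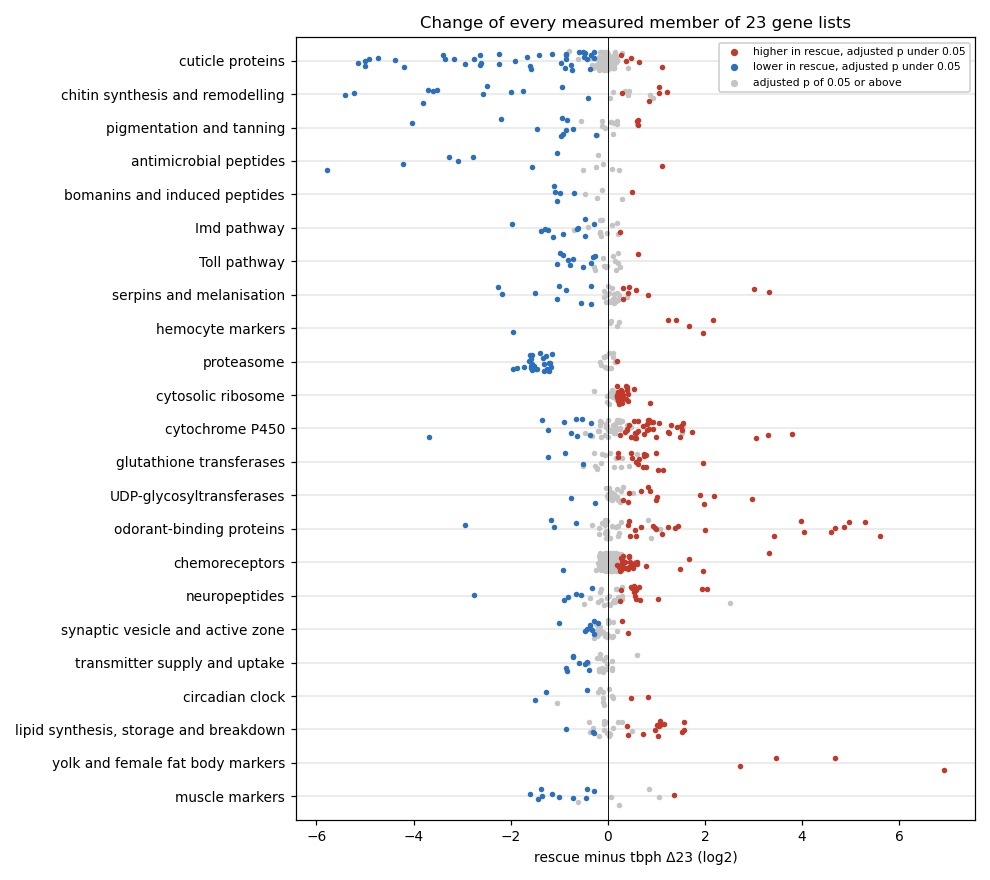
Change (rescue minus tbph Δ23, log2) of every measured member of 23 gene lists. Blue and red points passed an adjusted p of 0.05 and grey points did not. Cuticle, chitin and antimicrobial peptide genes extend furthest to the left, down to -5.79. Odorant-binding proteins and yolk markers extend furthest to the right, up to 6.93. The proteasome list splits into 26 standard subunits between -1.96 and -1.15 and 14 paralogs between -0.15 and 0.19.

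Antimicrobial peptides are secreted by fat body and blood cells under control of the NF-κB factors Relish, Dorsal and Dif. Of 14 measured, 7 were lower, Drsl5 was higher and 6 did not pass, with a median of -0.78. The lower count was 5 when rescue replicate 2 or tbph Δ23 replicate 2 was left out, 6 to 7 for the other arrays. AttD, an attacin, read 3.82, 3.58 and 4.03 in rescue heads against 9.86, 10.24 and 8.68 in tbph Δ23 heads, and fell by 5.79 ± 0.605 (SE; adjusted p of 2.31e-05). The cecropin CecB read 5.19, 5.17 and 5.59 in rescue, against 9.10, 9.57 and 9.93. AttD averaged 3.25 in w1118 and CecB 5.07, and the differences of rescue from w1118, of 0.56 and 0.24, did not pass (adjusted p of 0.523 and 0.361). Drosomycin, Drs, read 9.50, 9.86 and 10.22 in rescue against 13.13, 12.95 and 12.73 in tbph Δ23, and it was also 1.04 lower in rescue than in w1118. The induced peptide gene edin fell by 3.26 but stayed far above the control, with means of 8.33 in rescue, 11.60 in tbph Δ23 and 4.25 in w1118.

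Other peptides changed less. Def (defensin) fell by 2.77, and its rescue arrays spread over 7.21 to 9.0. DptB, a diptericin, read 11.52, 11.14 and 11.42 in rescue, 13.30, 12.97 and 12.49 in tbph Δ23 and 8.92 on average in w1118. DptB fell by 1.56 with an adjusted p of 0.0399, which became 0.0508 to 0.123 when any single array other than rescue replicate 1 was left out. Mtk (metchnikowin) read 12.33, 12.05 and 12.52 in rescue against 13.65, 13.40 and 12.99 in tbph Δ23. Mtk fell by 1.05 (adjusted p of 0.0194) and lost this call when rescue replicate 2, tbph Δ23 replicate 1 or tbph Δ23 replicate 2 was left out, with adjusted p of 0.0573 to 0.0749. Of 21 listed Bomanins and other induced peptides, short products of the Toll pathway, 10 were measured. Of these, 5 were lower and BomS6 was higher. BomS5 fell by 1.11. The rise of BomS6, by 0.50, had an adjusted p of 0.0408, which became 0.081 to 0.162 without rescue replicate 2 or 3 or tbph Δ23 replicate 2 or 3.

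Of 24 measured genes of the Imd pathway, which senses bacterial peptidoglycan and ends at Relish, 11 were lower and Uev1A was higher, with a median of -0.35. Rel read 9.19, 9.32 and 9.30 in rescue heads against 10.45, 10.69 and 10.40 in tbph Δ23 heads, and fell by 1.24 ± 0.123 (SE; adjusted p of 1.48e-05). Rel averaged 9.09 in w1118, and rescue differed from it by 0.18 with an adjusted p of 0.295. PGRP-LF, which dampens the pathway, fell by 1.38, the amidase PGRP-LB fell by 1.30, and pirk, a negative regulator, fell by 1.13. key, the IKKγ subunit, fell by 0.62. The core members imd and Dredd read 5.60 to 5.74 and 7.35 to 7.50 in rescue, and their changes were -0.02 (95% interval -0.23 to 0.19) and -0.12 (-0.29 to 0.06).

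Of 23 genes of the Toll pathway, which responds to fungi and Gram-positive bacteria, 10 were lower and GNBP3 was higher, with a median of -0.27. cact, the IκB that holds Dorsal in the cytoplasm, read 8.47, 8.58 and 8.57 in rescue against 9.38, 9.52 and 9.66 in tbph Δ23 and fell by 0.98. dl (Dorsal) fell by 0.52, while Dif changed by -0.09 (-0.25 to 0.08). The protease SPE, which activates the Toll ligand, fell by 0.78 and the serpin nec fell by 0.71. Of 13 JAK-STAT and Turandot genes 2 were higher and 2 lower (15.4% each, against 14.3% and 15.1% of all genes). Their median change was -0.06. Stat92E (0.63) and et (0.45) rose, and dome (-0.27) and Ptp61F (-0.26) fell. None was lower without tbph Δ23 replicate 1. The stress peptide gene TotC read 7.28, 7.83 and 7.69 in rescue heads and 11.43, 9.40 and 8.16 in tbph Δ23 heads, a difference of -2.06 with an adjusted p of 0.061.

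Genes of melanisation and blood cells moved in both directions. Of 36 serpin and melanisation genes 8 were higher and 9 lower (22.2% and 25.0%, against 14.3% and 15.1% of all genes). Prophenoloxidases are the enzymes that melanise wounds, made by crystal cells. PPO1 read 8.67, 8.93 and 8.58 in rescue heads against 5.69, 5.20 and 5.29 in tbph Δ23 heads, a rise of 3.33 ± 0.25 (SE; adjusted p of 1.67e-06). PPO2 read 8.28, 8.29 and 8.10 in rescue against 5.34, 5.10 and 5.17. Both were also higher in rescue than in w1118, where they averaged 5.55 and 5.25. The protease Hayan, which acts upstream of them, fell by 1.5, and the serpin Spn88Eb fell by 2.27. Among 10 hemocyte markers 5 were higher and NimC4 was lower, with a median of 0.74. The plasmatocyte genes Hml and NimC1 rose by 2.16 and 1.97, and NimC4, a receptor for apoptotic cells also found on glia, read 4.59, 4.28 and 3.88 in rescue, 6.30, 6.02 and 6.29 in tbph Δ23 and 7.85 on average in w1118.

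The standard subunits of the proteasome fell together. The proteasome degrades ubiquitin-tagged proteins in a 20S core of alpha and beta subunits under a 19S cap of Rpt and Rpn subunits. All 26 measured genes of the standard subunits were lower in rescue, with changes from -1.96 to -1.15 on the log2 scale and a median of -1.46, and in all 26 the 3 rescue arrays lay below the 3 tbph Δ23 arrays. Their mean level was 9.11, 8.92 and 9.03 on the rescue arrays, 10.41, 10.38 and 10.62 on the tbph Δ23 arrays, 10.07, 9.98 and 10.15 in tbph Δ142, and 11.09, 11.51 and 11.08 in w1118. The cap subunit Rpn3 read 8.66, 8.42 and 8.50 in rescue against 10.41, 10.37 and 10.66 in tbph Δ23, and fell by 1.96 ± 0.131 (SE; adjusted p of 7.19e-07). The deubiquitinase Rpn11 (-1.87), the ATPase Rpt3 (-1.61), the core subunit Prosalpha5 (-1.59) and Prosbeta5 (-1.15), which carries the chymotrypsin-like site, fell with it. Beside these values, the same 26 genes differed from w1118 by -2.78 to -1.75 in rescue and by -1.08 to -0.51 in tbph Δ23. The 14 paralogous subunit genes, most of them known from testis, had mean levels of 3.45 to 3.47 in rescue and 3.42 to 3.49 in tbph Δ23, with changes between -0.15 and 0.19, of which Prosbeta2R1 (0.19) passed, though not without rescue replicate 1 or tbph Δ23 replicate 2 or 3 (adjusted p of 0.0561 to 0.0954).

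**Figure D5:**
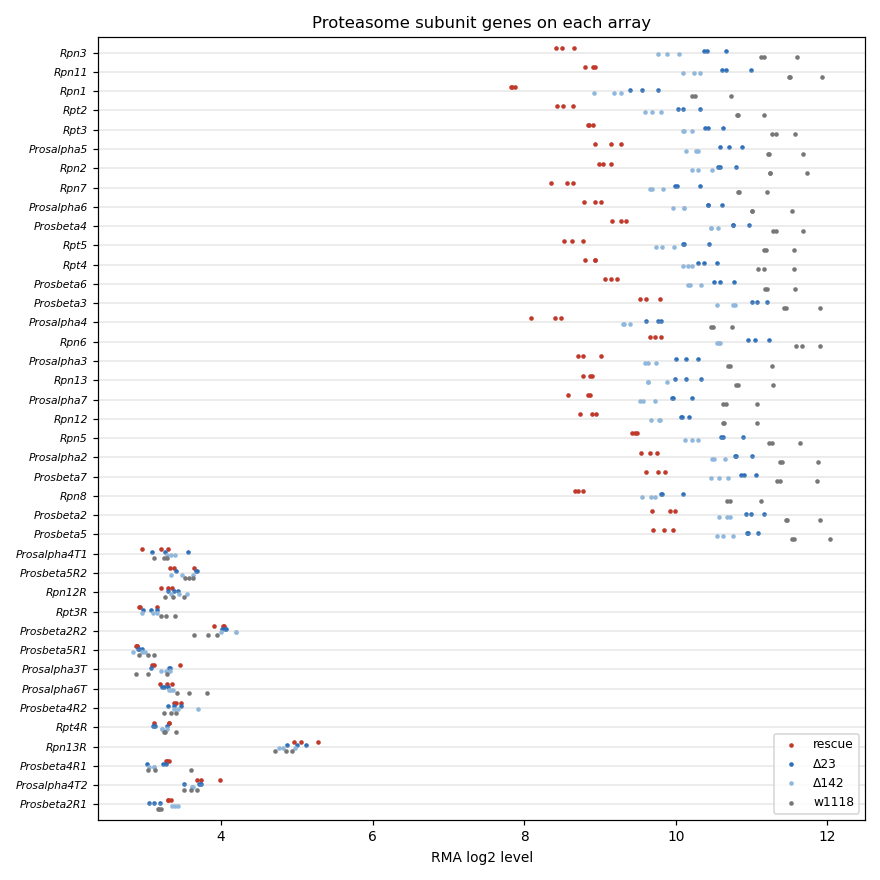
RMA log2 level of 40 proteasome subunit genes on each array, ordered by change, with the 4 groups in rows within each gene. In the 26 standard subunits the rescue arrays are the lowest group and w1118 the highest, and in the 14 paralogs the groups lie close together at the left, with changes between -0.15 and 0.19.

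Proteins that work with the proteasome were gathered after these values had been seen. Of 12 measured, 9 were lower and none was higher, with a median of -0.67. The deubiquitinases Uch-L5 and Usp14, which bind the cap, were lower by the most (-1.89 and -1.75), and TER94, the segregase that unfolds ubiquitinated proteins, fell by 0.76. cnc, the factor that drives proteasome genes, changed by -0.02 (-0.17 to 0.12). Of 29 autophagy genes, which serve the other main route of protein turnover, 10 were lower and 3 higher, with a median of -0.11.

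Many cytosolic ribosomal protein genes were slightly higher. Of 92 genes on the list 41 were measured, of which 28 were higher and none was lower, with a median of 0.22. The list also holds genes named only for likeness to ribosomal proteins. Among them RpLP0-like (0.86) and RpL24-like (0.20) were called higher, and RpL7-like (0.03) was not. RpLP0 read 12.42, 12.48 and 12.46 in rescue heads against 11.97, 11.88 and 11.90 in tbph Δ23 heads, a rise of 0.54. RpL32, a common reference gene for qPCR, read 13.04, 13.04 and 13.05 against 12.81, 12.81 and 12.68, a rise of 0.28. After another quantile normalisation 16 of the 41 genes passed, and RpL32 did not (adjusted p of 0.0736). Of 69 mitochondrial ribosomal genes 16 were higher and 4 lower (23.2% and 5.8%, against 14.3% and 15.1% of all genes). The median was 0.08. Leaving out single arrays gave 10 to 12 higher, with 10 in the absence of rescue replicate 1 or of tbph Δ23 replicate 3, and 1 to 4 lower, with 4 only in the absence of rescue replicate 1. Leaving out both first replicates gave 5 higher and 1 lower. Of 76 oxidative phosphorylation genes 5 were higher and 15 lower (median -0.08), which is 6.6% and 19.7% against 14.3% and 15.1% of all genes. The lower count was 9 with median centring. Leaving out rescue replicate 2 or tbph Δ23 replicate 2 gave 9 lower, tbph Δ23 replicate 3 gave 8 and rescue replicate 3 gave 7, with 1 to 3 higher in any single omission, and another quantile normalisation gave 23 lower.

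Yolk proteins and other fat body products were among the largest rises. fit, a satiety signal of the female fat body, read 13.05, 13.35 and 13.13 in rescue heads against 4.87, 7.09 and 6.77 in tbph Δ23 heads, a rise of 6.93 ± 1.22 (SE; adjusted p of 0.00109). Yp2 read 13.95, 14.04 and 13.99 in rescue against 8.60, 9.68 and 9.68, Yp3 rose by 3.47 and Yp1 by 2.73. Yp1, Yp2 and Yp3 are made by females, and the share of females per array is not known, so its part in these rises was not tested. In w1118 fit itself ranged from 4.03 to 9.24, and the rescue arrays lay above that range too. Over the 4 yolk and female fat body markers the median difference of rescue from tbph Δ23 was 4.07. Against w1118 the median was -1.79 in tbph Δ23, with 3 of the 4 called lower, and 1.61 in rescue, with 3 called higher. Lsp2, a larval serum protein that adult fat body also makes, read 12.21, 12.93 and 12.45 in rescue against 6.02, 8.54 and 8.38. tobi, an alpha-glucosidase that responds to insulin-producing cells, read 9.79, 9.81 and 8.70 in rescue, 4.10, 6.04 and 5.98 in tbph Δ23 and 3.49 on average in w1118.

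Among genes of lipid handling, rises were smaller. Of 32 measured, 13 were higher and 3 lower, with a median of 0.16. The fatty acid synthase FASN1 and ACC, which supplies its malonyl-CoA, rose by 1.06 and 1.03, the desaturase Desat1 by 0.98, the lipoprotein apolpp by 1.01, the lipid droplet protein Lsd-1 by 1.07 and AkhR, the receptor for adipokinetic hormone, by 1.15. FASN1 read 12.78, 12.86 and 12.97 in rescue against 11.73, 11.88 and 11.83 in tbph Δ23. The nutrient peptide gene CCHa2, which fat body and gut express, read 9.07, 8.92 and 9.65 in rescue against 7.09, 7.35 and 7.04, a rise of 2.05.

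Detoxifying enzymes were more often higher than lower. Cytochrome P450s oxidise hormones, fatty acids and foreign compounds. Of 83 measured genes on their list, 37 were higher and 10 lower (44.6% and 12.0%), with a median of 0.26. That list also holds the cyclophilins Cyp1 (0.63, called higher) and Cyp40 (0.19, not called), so its counts are not of P450s alone. Cyp4p2 read 6.67, 6.67 and 6.58 in rescue heads against 3.30, 3.34 and 3.41 in tbph Δ23 heads, a rise of 3.29 ± 0.0774 (SE; adjusted p of 2.89e-10), and it averaged 3.34 in tbph Δ142 and 3.26 in w1118. Cyp4ac2 read 7.22, 6.93 and 7.35 in rescue against 3.51, 3.25 and 3.35, and Cyp4ac1 rose by 3.05. Cyp6g1, known for insecticide resistance, read 11.08, 11.10 and 11.00 in rescue against 9.51, 9.56 and 9.53. Cyp4e3 moved the other way and fell by 3.68. Beyond these families, CG14273, a gene known by number, rose by 4.01 and was low in all 3 other groups. Of 34 glutathione transferases 16 were higher and 3 lower (median 0.28, with 5 lower without rescue replicate 1), and of 35 UDP-glycosyltransferases, which attach sugars to lipophilic compounds, 12 were higher and 2 lower (median 0.19). Ugt301D1 rose by 2.98, to 6.95 in rescue against 3.97 in tbph Δ23, with 8.91 in w1118, and GstE14 fell by 1.23. RU-486, a steroid, was fed to the rescue flies only, and its part in these families cannot be told apart.

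Odorant-binding proteins, small carriers secreted into the fluid of sensory hairs and some by fat body, held many of the largest rises. Of 54 measured, 23 were higher and 4 lower, with a median of 0.25. The list also holds Phk-3 (-0.65, called lower) and, not called, EbpIII (-0.04) and CheA29a (-0.01). Its counts are therefore not of odorant-binding proteins alone. Obp99a read 11.96, 12.03 and 11.52 in rescue heads against 5.43, 7.20 and 7.97 in tbph Δ23 heads, and Obp99b read 10.98, 10.62 and 10.85 against 5.80, 5.76 and 6.28, with 10.13 on average in w1118. A further set is made in the antenna. Obp83b read 11.51, 9.94 and 9.68 in rescue against 7.60, 3.37 and 3.34 in tbph Δ23, and Os-C read 11.27, 9.92 and 9.31 against 7.39, 3.70 and 3.52. In both genes replicate 1 was the highest of its group in rescue and in tbph Δ23, and the groups did not overlap. Without rescue replicate 1 and tbph Δ23 replicate 1, a setting chosen after the data were seen, Obp83b rose by 6.45 and Os-C by 6.01. Obp83g went the other way, at 5.30, 4.06 and 4.39 in rescue against 7.63, 7.35 and 7.55.

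Of 168 measured chemoreceptor genes, 30 were higher (17.9%, against 14.3% of all genes) and only Or63a was lower (-0.93), with a median of 0.07. Among the 30 were Snmp1 (0.79) and Snmp2 (0.35), which are not named as receptors. The higher count was 17 to 28 when single arrays were left out, with 19 when rescue replicate 1 was dropped. Dropping tbph Δ23 replicate 2 gave 18 and dropping its replicate 3 gave 17. Many of the called receptors lay at low levels, such as Gr33a (3.16 in rescue against 2.87) and Or67d (3.33 against 2.97). In the dimmest quintile of all genes 4.63% were higher, and in the next 7.64%. Ir76a, an ionotropic receptor, read 7.06, 6.95 and 7.06 in rescue heads against 3.91, 3.69 and 3.47 in tbph Δ23 heads, a rise of 3.33 ± 0.112 (SE; adjusted p of 6.08e-09). Orco, the co-receptor of the odorant receptors, read 7.93, 6.35 and 6.09 in rescue against 5.45, 4.87 and 5.05. Its rise of 1.67 was 1.10 without rescue replicate 1. How much antenna stayed on the heads is not stated, and its part in these genes was not tested. Antenna markers averaged 5.83 to 6.17 in w1118.

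Neuropeptide genes were called higher more often than all genes, and lower about as often. Of 42 measured, 15 were higher and 6 lower (35.7% and 14.3%, against 14.3% and 15.1% of all genes). Their median change was 0.18. The insulin-like peptide gene Ilp5 read 9.02, 9.55 and 9.64 in rescue heads against 7.27, 7.57 and 7.51 in tbph Δ23 heads, a rise of 1.95 ± 0.179 (SE; adjusted p of 8.20e-06), with 8.67 in w1118. Ilp2, from the same brain cells, rose by 0.67, and Dh44, a diuretic hormone of the pars intercerebralis, by 1.04. Eclosion hormone, Eh, which triggers moulting behaviour from a few brain neurons, read 4.29, 4.24 and 4.38 in rescue against 7.03, 6.93 and 7.22 in tbph Δ23 and 7.33 on average in w1118. SIFa fell by 0.91.

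Of 34 synaptic vesicle and active zone genes 10 were lower and 2 higher (29.4% and 5.9%, against 15.1% and 14.3% of all genes). The median was -0.17. With median centring 6 were lower, and when tbph Δ23 replicate 3 was left out 5 were. dlg1, a scaffold of the synapse and of septate junctions, read 7.60, 7.57 and 7.80 in rescue heads against 8.58, 8.63 and 8.78 in tbph Δ23 heads and fell by 1.01. brp, nSyb and elav changed by 0.09 (-0.10 to 0.29), 0.11 (-0.11 to 0.33) and -0.07 (-0.25 to 0.11). Of 24 genes of transmitter supply and uptake 8 were lower (33.3%) and none was higher. The dopamine transporter DAT (-0.72) was among the lower ones. Of 40 transmitter receptors 11 were lower and 3 higher (27.5% and 7.5%). The nicotinic subunit nAChRbeta3 rose by 1.38 and the potassium leak channel Ork1 by 1.22. robo1, a guidance receptor for Slit, read 6.27, 6.36 and 6.63 in rescue against 4.07, 3.65 and 4.20 in tbph Δ23, with 7.39 on average in w1118.

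Genes studied as targets of TBPH in flies, by other work or, for Rel, by the study that made these arrays, were mixed. Of 11 measured, Rel and dlg1 were lower (18.2%, against 15.1% of all genes) and HDAC6 was higher, by 0.44 (9.1%, against 14.3%). futsch, the microtubule-associated protein of the synapse, changed by 0.02 (-0.18 to 0.21), cac, the presynaptic calcium channel, by -0.01 (-0.18 to 0.16), para, the sodium channel, by -0.19 (-0.35 to -0.03, adjusted p of 0.0703), and Gad1 by -0.23 (adjusted p of 0.0931).

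Of 15 clock genes 3 were lower and 2 higher (20.0% and 13.3%, against 15.1% and 14.3% of all genes). per and tim, the feedback repressors of the clock, oscillate over the day. per read 6.46, 5.01 and 5.70 in rescue heads against 7.47, 7.19 and 6.98 in tbph Δ23 heads and fell by 1.49, and tim read 7.30, 6.38 and 6.61 against 8.19, 7.96 and 7.94. vri, which cycles with them, read 9.21, 6.75 and 7.92 in rescue and 8.73 to 9.25 in tbph Δ23, and did not pass (adjusted p of 0.0966). In all 3 genes rescue replicate 1 was the highest and replicate 2 the lowest rescue array. cry, the light sensor, was even across arrays, at 9.10 to 9.17 in rescue and 8.28 to 8.38 in tbph Δ23, a rise of 0.82. Clk changed by 0.11 (-0.33 to 0.55). The part of the hour of collection was not tested. dyw, a gene of the juvenile hormone binding protein family which overlaps per in the RefSeq annotation, read 4.07, 4.22 and 4.21 in rescue and 9.69, 10.73 and 10.22 in tbph Δ23, with 11.17 in w1118.

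Muscle genes were mostly lower in rescue. Of 16 measured, 10 were lower and Act79B was higher, with a median of -0.53. Mlc1, a myosin light chain, read 12.03, 11.55 and 11.55 in rescue heads against 13.02, 13.10 and 13.14 in tbph Δ23 heads, and fell by 1.38. The paramyosin gene Prm (-1.43) and the actin gene Act87E (-1.61) also fell. Rescue replicate 1 was the highest rescue array in all 3, and without it 12 of the 16 were lower. Act79B, a muscle actin, read 10.74, 9.26 and 9.35 in rescue against 8.08, 8.90 and 8.26, and its rise of 1.37 was 0.89 without rescue replicate 1 and lost its call without tbph Δ23 replicate 1 or 3 (adjusted p of 0.0616 and 0.0538).

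Smaller sets held a few large changes. In folate metabolism Nmdmc, the mitochondrial dehydrogenase, read 8.06, 8.95 and 8.44 in rescue heads against 10.25, 10.22 and 10.12 in tbph Δ23 heads, with 8.28 in w1118, while the cytosolic enzyme pug rose by 1.27. The metallothionein MtnA rose by 1.52. MtnD fell by 2.69, with 8.45, 6.0 and 6.05 in rescue against 10.11, 9.30 and 9.16. Of 14 cell death genes 4 were lower (28.6%, against 15.1% of all genes) and Buffy was higher (7.1%, against 14.3%). The initiator caspase Dronc (-1.11) and skl (-1.08), an inhibitor of the apoptosis inhibitor Diap1, were among those that fell. Among the angiotensin-converting enzyme relatives, a set chosen after its values had been seen, Ance-5 rose by 2.46 and Ance-2 fell by 2.26. Of 26 neprilysin-like peptidases, chosen in the same way, 14 were higher and 4 lower (53.8% and 15.4%, against 14.3% and 15.1% of all genes).

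Some of the changed genes lie side by side. Runs of at least 5 neighbouring measured genes that all passed in the same direction were looked for in the RefSeq order, and 4 were found. Cpr49Ae, Cpr49Af, Cpr49Ag, CG30050 and Cpr49Ah were lower (-1.92 to -0.35), as were CG4962, CG13044, CG13043, CG13063 and CG13042 (-7.53 to -0.61) and the 6 genes from CG11052 to ImpE3 (-1.76 to -0.29). The run of Acbp1, CG34134, CG8475, CG8460 and PGAP5 was higher by 0.20 to 1.38. Members of 3 of these runs lost their calls when a single array was left out, and the run of CG13043 did not. Around TBPH itself, 3 of the 10 nearest measured genes passed, near the 29.5% over all genes. Of these, ytr rose by 0.46 (adjusted p of 0.0201, but 0.0788 without rescue replicate 3 and 0.0613 without tbph Δ23 replicate 1), ken fell by 1.08 and TM4SF fell by 0.80. The other 7 changed by -0.08 to 0.14.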

How the data were processed

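Heads of 4 groups were hybridised to Affymetrix Drosophila Genome 2.0 arrays by the 3' IVT protocol. The deposited values are log2 expression levels of 18952 probe sets, which the authors made by RMA (background correction, quantile normalization and summarization). Levels ran from 2.32 to 14.23. Arrays hold no read depth, and their number limits the precision. Of the probe sets, 13647 were annotated to a single gene, 402 to several and 4903 were not listed in the annotation used here. Gene IDs were updated through RefSeq (13544 matched, and 103 kept the annotated symbol) and probe sets of a gene were collapsed by their median, which gave 11982 genes. Of 1094 genes with several probe sets, 16 had probe sets that passed in opposite directions.

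A group-means model was fitted across all 12 arrays with limma 3.58.1 in R 4.3.3, with lmFit and eBayes, so that the 4 groups shared 1 estimate of the spread. Rescue minus tbph Δ23 was tested two-sided with Benjamini-Hochberg adjustment over all 11982 genes at 0.05. TBPH was also fitted by probe set. Intervals cover 95%. Since separate cultures are not described, p-values measure the spread between these samples. The fit was tested on simulated data. Same-numbered replicates were not taken as pairs.

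The 61 gene lists, 5 of them added after their values were seen, were written with earlier results of these data known, and so was the rule for named genes. It took TBPH and its 5 neighbours on each side, genes the study names in heads, the 15 largest rises and falls, the 10 largest moderated t in each direction, up to 4 changed members and 2 core members per list, the 5 genes with the widest spread over rescue arrays, and runs of neighbours. Further list members were chosen after their values were seen. The alternatives were a fit of 6 arrays, an intensity trend with a robust prior, array weights, median centring and another quantile normalisation. Further ones were the brightest probe set, a filter at the 40th percentile, a fold threshold and a replicate block. Each rescue and each tbph Δ23 array was also left out in turn, and no array of the other groups was. Leaving out both first replicates together was added after the data were seen.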

Additional observations from a re-analysis of the deposited data

How the results depend on the processing

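The comparison gave 3529 genes (1719 higher and 1810 lower in rescue). Requiring a change of at least 2-fold as well left 643 (267 higher and 376 lower), by construction. The other alternatives gave 2882 to 3806 genes, and 76.7% to 97.4% of the original calls were kept with their direction. Leaving out single arrays gave 2882 to 3304 genes, with 1340 to 1611 higher and 1507 to 1693 lower. Median centring turned the split to 1769 higher and 1561 lower (53.1% higher among the calls, against 48.7%). With the brightest probe set for each gene, 3 genes passed in the opposite direction. Of 321 called genes among those named, 0 reversed under the alternatives run, and 0 to 35 lost their call in any of them. The cause was not tested.

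Replicate numbers were also taken as a block, which gave 3286 genes (1587 higher and 1699 lower). The deviations of same-numbered rescue and tbph Δ23 arrays correlated at 0.0619, 0.0302 and 0.0187 over genes, so the numbers were not treated as pairing the arrays. Rescue replicate 1 had an array weight of 0.411.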

Other observations

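Storage proteins and hormone-related genes were also examined. Of 11 storage and serum protein genes 5 were higher in rescue (45.5%, against 14.3% of all genes) and none was lower. Their median change was 0.53. Of 11 juvenile hormone genes 4 were higher (36.4%) and none was lower, with a median of 0.25. The higher count among juvenile hormone genes was 2 without tbph Δ23 replicate 1 or 2. It was also 2 in a fit of the 6 rescue and tbph Δ23 arrays alone. Jhedup, a relative of juvenile hormone esterase, rose by 2.73. Of 27 ecdysone response genes 3 were higher (5 without rescue replicate 1) and 3 were lower. Each is 11.1%, against 14.3% and 15.1% of all genes. Eip78C, a nuclear receptor induced by ecdysone, fell by 1.83. Of 25 opsin and phototransduction genes 8 were lower and 1 was higher, with a median of -0.08, and 4 were lower without both first replicates. Of 24 glial and blood-brain barrier genes 9 were lower and 4 higher (37.5% and 16.7%), with a median of -0.12. In that fit of 6 arrays 5 were lower.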
